A study of Mus musculus with 10 samples.

Results

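The Zfp genes examined here are the mouse genes whose symbol is Zfp followed by digits alone, without Zfp36, and whose mean over the 10 libraries was at least 50 normalized read counts. They are 211 of the 369 such symbols in the deposited table, which holds 57010 gene identifiers, 10217 of them with a mean of at least 50. Members were thus chosen by their symbol and their mean level, the only measured value in the rule, and the fold changes after confinement were no part of it. The group was proposed with earlier results of these data known. At the edge of the rule, Zfp870 (mean 49.7) and Zfp956 (49.9) fell just outside, and Zfp341 (50.7) and Zfp469 (51.3) just inside. Of the 158 symbols left out for their level, 26 were at 0 in every library.

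The libraries are mRNA-seq of bone marrow-derived macrophages (BMDM), cells grown from mouse femur marrow for 7 days in medium with 20 ng/mL of macrophage colony-stimulating factor (MCSF). The cells came from wild-type mice (WT) or from mice lacking WASp (WKO), the Wiskott-Aldrich syndrome protein, which starts branched actin filaments. Confined cells were held for 1 h at 3 µm of height under PDMS micropillars, and 5 ng of total RNA went into each library. The study asked how confinement acts on macrophages with and without WASp.

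The 4 groups were unconfined WT (replicates 1 and 3), confined WT (replicates 2, 3 and 6), unconfined WKO (replicates 1 and 3) and confined WKO (replicates 1, 2 and 5), and values below are given in that order of replicates. All cells were grown in the same way, and WKO cells lacked WASp in both of their groups. The labels do not give the age of the mice, how unconfined cells were handled, or whether the libraries of a group came from separate mice or cultures, so p-values measure only the spread between these libraries, which may be technical.

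Most Zfp symbols name proteins with zinc fingers of the Cys2-His2 kind, short loops held by a zinc ion that read DNA, or in some proteins RNA, finger by finger. Many also carry a KRAB domain, which recruits the scaffold Trim28, the histone H3 lysine 9 methyltransferase Setdb1 and HP1 proteins, and KRAB zinc finger proteins are best known for silencing retroelements and guarding imprinted genes. Others are activators, scaffolds, or factors of RNA and protein quality control, so the symbol marks a fold and not one function.

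The recovered read totals were 13295701 to 19329908 per library, and each member had 8 to 3683 reads in each library, with a median of 165. Was, the gene targeted in WKO mice, stood at 1308 to 1649 normalized counts in the 5 WT libraries and at 96.9 to 154 in the 5 WKO libraries. Of 10 macrophage markers listed, Adgre1 was at 19572 to 25809 and Csf1r at 21303 to 37839. Cd14 was at 2885 to 14038, Mertk at 1438 to 3948 and Cd163, the lowest, at 33.6 to 208. Summed markers of other cells differed between libraries. For 14 stromal genes the sums were 967 to 2059 in unconfined WT, 245 to 901 in confined WT, 2771 to 3270 in unconfined WKO and 1054 to 11775 in confined WKO. The sums of 10 neutrophil and progenitor genes were 6924 to 10861, 2557 to 7943, 24801 to 29904 and 6991 to 27958 in the same order, and those of 6 B lineage genes were 804 to 858, 413 to 773, 4068 to 4395 and 1613 to 5188. Lum was at 0 in 7 of the 10 libraries, Pdgfra and Pdgfrb in confined WT replicate 3, Thbs2, Cd79a and Ebf1 in confined WT replicate 2, and Pax5 and Ms4a1 in confined WKO replicate 5. The part of these cells in the results below was not tested, and in bulk RNA fewer cells of a type cannot be told apart from less RNA per cell.

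Zfp transcripts were of low to moderate level in these cells. The members' median of mean levels was 168 normalized counts, against 357 over the 12455 tested genes, which had a mean of at least 10. Per kilobase of exon, Zfp703 stood highest with 537, followed by Zfp706 (330), Zfp207 (320), a factor of spindle assembly, Zfp106 (277), an RNA-binding protein, and Zfp710 (228), while the median member had 35.2. Of the 210 members with an annotated coding sequence, 102 matched a KRAB box pattern and 108 did not, and the median member had 10 fingers, with 12 in the KRAB class and 6 outside it. The longest array was that of Zfp619, with 33 fingers, and 5 members matched no finger pattern (Zfp326, Zfp330, Zfp503, Zfp703 and Zfp839). KRAB members were the less abundant class, with a median of 111 normalized counts against 288.

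After confinement, more Zfp genes had lower than higher values, and few single genes passed the test. In WT, 140 of 211 members (66.4%) had a log2 fold change under 0, with a median of -0.16, where the share over all tested genes was 51.0% and the median -0.01. In WKO, 150 members (71.1%) were under 0 with a median of -0.21, against 52.0% and -0.01. In the mean of the WT and WKO effects, called the average below, the numbers were 144 members (68.2%) and -0.21, against 52.7% and -0.02. Fold changes here are on the scale of log2(value + 1). The confinement comparisons in WT and in WKO share no library, but their p-values share 1 estimate of the spread, taken over all 10 libraries.

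The test called 1 member lower and 3 higher in WT (limma, adjusted p under 0.05 over all tested genes). Of all tested genes, 0.265% were called lower and 0.891% higher. In WKO, 4 members were lower and 2 higher, beside 0.233% and 1.49% of all tested genes. Without any 1 confined WT library, 0 members were called in WT, beside 0.0803% to 0.0883% of all tested genes lower and 0.393% to 0.442% higher. Without confined WKO replicate 1 or 5 the counts in WT were 5 lower and 6 higher (0.690% and 1.96% of all tested genes in the same fit) or 4 and 5 (0.883% and 2.30%). In WKO, 0 were lower without confined WT replicate 2 or 3, beside 0.112% and 0.0803% of all tested genes. Without confined WT replicate 6 or confined WKO replicate 2, 1 was lower, beside 0.136% and 0.193%. Without confined WKO replicate 1, 8 were lower and 13 higher, where 1.81% and 6.57% of all tested genes were. Fits without 1 unconfined library leave 1 library in that group. In these fits fewer genes were called in WT and in WKO, among members and among all tested genes. In the average, which uses all 10 libraries, 13 members fell (6.16%) and 9 rose (4.27%), where 2.07% of all tested genes were called lower and 4.13% higher. The share of members called higher was thus near the background, and the share called lower was above it. Upper-quartile scaling gave 24 lower and 9 higher in the average, beside 3.58% and 3.15% of all tested genes, and it moved the median of all tested genes itself to -0.10, with the members at -0.30. The share of all tested genes called moved with these counts. Leaving out unconfined WKO replicate 1 left 3 members lower and 5 higher (1.42% and 2.37%), beside 0.474% and 1.84% of all tested genes, and leaving out confined WKO replicate 1 gave 24 and 17 (11.4% and 8.06%), beside 4.88% and 9.63%. Unconfined WT replicate 1 (5 lower), unconfined WKO replicate 3 (7), and confined WT replicates 2 (7), 3 (8) and 6 (7) also moved the count of members called lower when each was left out, beside 0.626% to 1.06% of all tested genes.

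Members were also counted, without a model, by whether their groups overlapped. In WT, all confined libraries were below all unconfined ones for 65 members (30.8%, against 17.7% of all tested genes) and above them for 25 (11.8%, against 18.3%). In WKO, the counts were 63 below (29.9%, against 13.8%) and 17 above (8.06%, against 14.5%). For 24 members (11.4%, against 2.93%) all 6 confined libraries were below all 4 unconfined ones, and for 8 members (3.79%, against 4.46%) all 6 were above. Fewer libraries overlap less often, among members and among all tested genes. Without unconfined WT replicate 3, 108 members (51.2%, against 31.8%) were below in WT, and without unconfined WKO replicate 3, 96 (45.5%, against 23.4%) were below in WKO. In WT, 48 were above without unconfined replicate 1 (22.7%, against 32.2%) and 38 without confined replicate 2 (against 22.7% of all tested genes). In WKO, 28 were above without unconfined replicate 1 (13.3%, against 24.1%) and 51 without confined replicate 1 (24.2%, against 27.1%). Over all libraries, 16 were above without confined WKO replicate 1 (7.58%, against 8.20%).

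The direction differed with the members' level. Among the 96 members with a mean of 50 to 150, 74 (77.1%) were lower in the average, with a median of -0.30, and among the 87 members between 150 and 500, 60 (69.0%) were lower, with a median of -0.15. Of the 28 members at 500 or more, only 10 (35.7%) were lower, and their median was 0.12. All tested genes of the same levels also leaned this way, with 66.1%, 60.2% and 38.2% lower and medians of -0.14, -0.06 and 0.05. The members' median was thus below that of all tested genes of the same level in both lower bands, and above it in the highest. The 82 Zfp genes with a mean of 10 to 50, outside the rule, had 62 (75.6%) lower in the average and a median of -0.43, where all 2238 tested genes of that level had 64.7% lower and a median of -0.22. At an unadjusted p under 0.05, limma gave 8 of the 82 lower and 2 higher, beside 9.61% and 3.53% of the 2238.

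**Figure D1:**
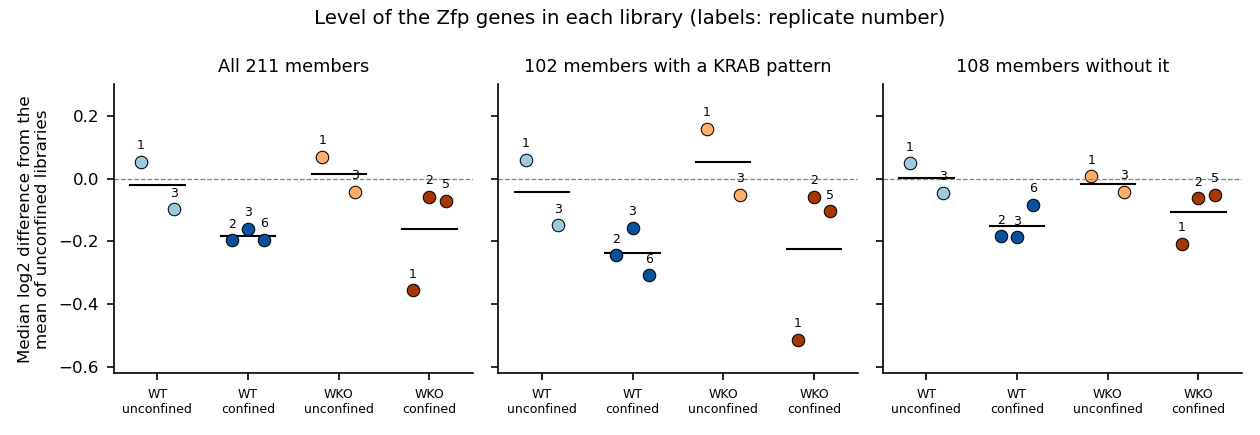
Median over the Zfp genes of the log2 difference between each library and the mean of the 4 unconfined libraries (y axis), by group (x axis), for all members and by KRAB pattern. Points are libraries with their replicate number and lines are group means. Confined WKO replicate 1 sits lowest in each panel. Confined WKO replicates 2 and 5 lie among the unconfined libraries for all members and for the KRAB class, and just below them, at -0.06 and -0.05, for the members without the KRAB pattern.

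The lower values were not spread evenly over the confined libraries. Relative to the mean of the unconfined libraries, the median member stood at 0.05 and -0.10 in the unconfined WT libraries and at -0.20, -0.16 and -0.20 in the confined ones. In WKO it stood at 0.07 and -0.04 in the unconfined libraries and at -0.35, -0.06 and -0.07 in the confined ones. All 3 confined WT libraries were below every unconfined library, while confined WKO replicates 2 and 5 lay between the unconfined WT libraries. The same median over all tested genes stayed within 0.016 of 0 in each library. Size factors of the kind used for these values hold that median near 0, so it is no independent comparison for the members. Without confined WKO replicate 1, the members' median in WKO was -0.14 and 125 members were lower. That library had summed stromal markers of 3840 and neutrophil markers of 21710, both between the values of the other confined WKO libraries, and the highest B lineage sum of the 10 libraries (5188, against 3532 and 1613 in confined WKO replicates 2 and 5). The part of these cells in its lower Zfp values was not tested.

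The KRAB class had a lower median than the rest in WKO and about the same median in WT. In WT, 67 of 102 KRAB members and 73 of 108 others were lower, with medians of -0.15 and -0.17. In WKO, 81 of 102 KRAB members were lower with a median of -0.33, against 69 of 108 and -0.10. By library, the median KRAB member stood at -0.51 in confined WKO replicate 1 and at -0.06 and -0.10 in replicates 2 and 5. The median of the other members was -0.21, -0.06 and -0.05 in these libraries, so the classes lay furthest apart in replicate 1. In unconfined WKO replicates 1 and 3 the medians were 0.16 and -0.05 for the KRAB class and 0.01 and -0.04 for the others. The difference between the classes was not tested. The number of fingers followed the same order. Of the 41 members with 15 or more fingers, 38 were lower in WKO and 30 in WT, and of the 39 members with 0 to 4 fingers, 21 and 25 were lower. Across genes, Spearman's rho between fingers and fold change was -0.09 in WT and -0.32 in WKO (n = 210 genes, which share libraries and are not independent). Finger number, KRAB class and level go together in these genes, and their parts were not tested.

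**Figure D2:**
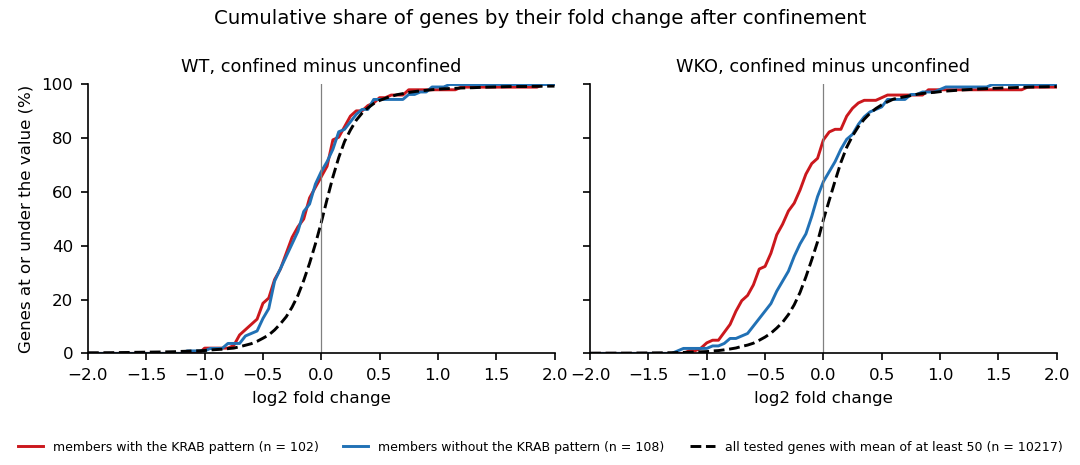
Cumulative share of genes (y axis, %) at or under each log2 fold change after confinement (x axis), in WT and in WKO, for members with and without the KRAB pattern and for all 10217 genes with a mean of at least 50. In WT both classes lie left of all genes together, and in WKO the KRAB class (median -0.33) lies further left than the other members (-0.10). The curve of all genes is not matched for level. Tested genes with a mean of 50 to 150 had medians of -0.13 in WT and -0.15 in WKO, and those at 150 to 500 had -0.05 and -0.06.

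Among the 9 members that rose in the average, Zfp667 changed most. Zfp667, a KRAB protein with 14 fingers encoded on chromosome 7, had 21.8 and 33.6 normalized counts in unconfined WT and 147, 98.5 and 70.7 in confined WT, then 33.5 and 16.5 in unconfined WKO and 123, 148 and 140 in confined WKO. Every confined library was above every unconfined one. It rose 4.50-fold in the average (log2 2.17 ± 0.27 SE, limma adjusted p = 0.000785), and it was the only member called in both genotypes, with 1.86 in WT (adjusted p = 0.0418) and 2.49 in WKO (adjusted p = 0.00724). Its WT call was lost without any 1 of the 5 WT libraries or confined WKO replicate 2 (adjusted p up to 0.286), and its WKO call without unconfined WKO replicate 3 (0.0954), while the call in the average held under each alternative run.

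Zfp703 and Zfp503 are the mouse pair of the NocA-like zinc finger family, transcriptional corepressors with an atypical finger, and both rose. Zfp703 had 1085 and 1039 counts in unconfined WT, 1795, 1621 and 1887 in confined WT, 1360 and 1335 in unconfined WKO, and 2520, 2189 and 3385 in confined WKO. The groups did not overlap in either genotype, and confined WKO stood above confined WT. Its average log2 fold change was 0.85 ± 0.11 SE (limma adjusted p = 0.00114), with calls in WKO (0.98, adjusted p = 0.0106) and not in WT (0.73, adjusted p = 0.0558). The exons of Zfp703 overlap those of Gm45371. The WKO call was lost without either unconfined WKO library (adjusted p up to 0.115), and a WT call was gained without any 1 confined WKO library (0.00221 to 0.0356).

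Zfp503 was the scarcer of the pair. It had 57.0 and 72.9 counts in unconfined WT, 96.4, 116 and 171 in confined WT, 36.5 and 42.3 in unconfined WKO, and 143, 116 and 74.3 in confined WKO. All 6 confined libraries were above all 4 unconfined ones, the lowest of them by a small step. Its average was 1.18 ± 0.23 SE (limma adjusted p = 0.0126), and the call was lost without unconfined WT replicate 1 or unconfined WKO replicate 1 (adjusted p up to 0.0667).

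Zfp655 and Zfp516 rose among the abundant members. Zfp655 had 630 and 508 counts in unconfined WT and 1176, 1228 and 1207 in confined WT, then 668 and 724 in unconfined WKO and 875, 1383 and 1489 in confined WKO. Its confined WT libraries were close together and confined WKO replicate 1 lay between them and the unconfined level. The average was 0.95 ± 0.14 SE (limma adjusted p = 0.00244), with a call in WT (1.09, adjusted p = 0.0235) that was lost without any 1 WT library (up to 0.237) and none in WKO (0.81, adjusted p = 0.0728). Zfp516, known as an activator of the thermogenic program of brown fat, had 850 and 792 counts in unconfined WT and 1684, 1401 and 1309 in confined WT, against 924 and 781 in unconfined WKO and 1049, 1620 and 1694 in confined WKO. Confined WKO replicate 1 was again the lowest confined library. Its average was 0.78 ± 0.14 SE (limma adjusted p = 0.00627).

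The other 4 risers were Zfp367 (0.72), Zfp948 (0.80), Zfp652 (0.63) and Zfp719 (1.45), given as average log2 fold changes. Zfp367 had 352 and 321 counts in unconfined WT and 583, 636 and 720 in confined WT, and was called in WT (0.94, limma adjusted p = 0.0419), while confined WKO replicate 1 (419) fell within the unconfined WKO values of 351 and 425. Zfp652, a repressor, likewise had 896 counts in confined WKO replicate 1, within the unconfined WKO values of 863 and 970, and 1595 and 1619 in replicates 2 and 5. Zfp719, a KRAB protein, had 84.5 and 40.3 counts in unconfined WT, 114, 143 and 149 in confined WT, 67.1 and 46.5 in unconfined WKO, and 99.6, 148 and 429 in confined WKO. Its confined WKO mean was 226 ± 178 (SD, n = 3), and without replicate 5 its average was 1.15 (limma adjusted p = 0.0143). The calls of Zfp652 (limma adjusted p up to 0.138) and Zfp719 (up to 0.156) were lost when any 1 library other than confined WKO replicates 1 and 5 was left out, that of Zfp367 without unconfined WKO replicate 1 (0.0666) and that of Zfp948 without replicate 3 of unconfined WT or WKO (up to 0.0794). Zfp948 is named with its values seen.

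**Figure D3:**
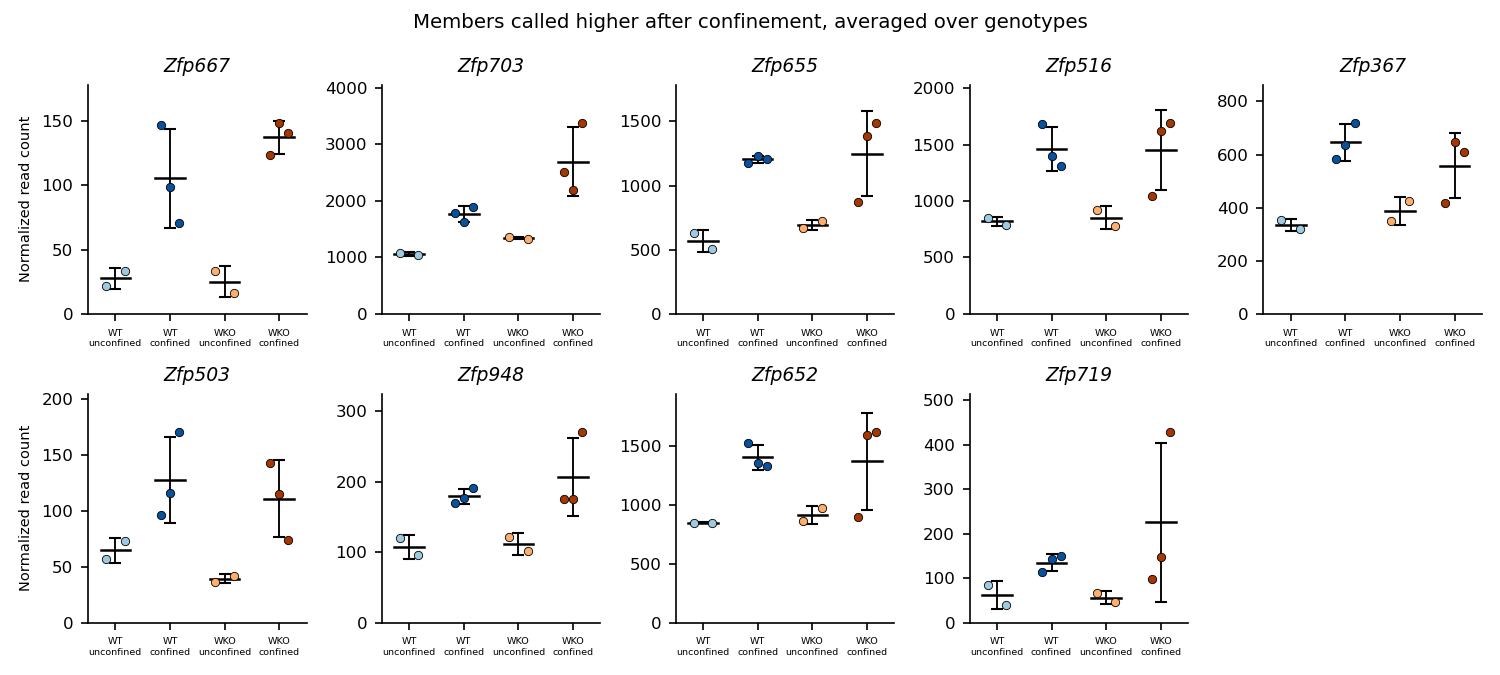
Normalized read counts (y axis, from 0) of the 9 Zfp genes called higher in the average of WT and WKO. Points are libraries, horizontal lines are group means and bars are the SD of 2 or 3 libraries. Zfp667, Zfp703, Zfp655, Zfp516, Zfp503, Zfp948 and Zfp719 have every confined library above every unconfined one.

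The 13 members that fell changed less, by 0.39 to 0.96 on the log2 scale in the average. Zfp90, a KRAB protein with 13 fingers, had 320 and 287 counts in unconfined WT, 171, 184 and 209 in confined WT, 412 and 452 in unconfined WKO, and 268, 256 and 248 in confined WKO. Groups did not overlap within either genotype, and each WKO group stood above the matching WT group. It fell by 0.72 ± 0.11 SE in the average (limma adjusted p = 0.00319), and its WKO call (-0.75, adjusted p = 0.0374) was lost when any library except confined WKO replicate 1 was left out (up to 0.330). Its transcript overlaps Gm26786 and shares 92.8% of its length with another annotated gene, so its counts are uncertain.

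Zfp397, which carries a SCAN domain, had 524 and 481 counts in unconfined WT, 326, 270 and 267 in confined WT, 546 and 497 in unconfined WKO, and 216, 298 and 349 in confined WKO. The highest confined library was below the lowest unconfined one in each genotype. It fell by 0.85 ± 0.14 SE in the average (limma adjusted p = 0.00432). Its WKO call (-0.88, adjusted p = 0.0486) was near the threshold and was lost in 8 of the 10 fits without 1 library, confined WKO replicates 1 and 5 being the exceptions (up to 0.365).

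Zfp710 was the most abundant member to fall. It had 1828 and 2049 counts in unconfined WT, 1387, 1466 and 1548 in confined WT, 1885 and 1822 in unconfined WKO, and 1203, 1369 and 1264 in confined WKO. Confined and unconfined libraries did not overlap within either genotype. It fell by 0.47 ± 0.08 SE in the average (limma adjusted p = 0.00485), with a call in WKO (-0.54, adjusted p = 0.034). The WKO call was lost without either unconfined WKO library or any 1 confined WT library (up to 0.311), and its exons overlap Gm44949.

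Zfp467, known to favour fat over bone differentiation of marrow stroma, was the 1 member called lower in WT. It had 351 and 330 counts in unconfined WT and 182, 162 and 174 in confined WT, a loss of about equal size in each library. In WKO it had 341 and 268 counts unconfined and 244, 192 and 247 confined, so that the groups lay closer together. It fell by 0.98 ± 0.18 SE in WT (limma adjusted p = 0.0258), and its WKO value was -0.42 ± 0.18 SE (adjusted p = 0.325). The difference between these effects was 0.56 ± 0.26 SE and did not pass the test (limma adjusted p = 0.999). The WT call was lost without any 1 WT library (up to 0.189), and the call in the average (-0.70, adjusted p = 0.00821) without unconfined WKO replicate 1 (0.0635). Summed stromal markers were also lower after confinement in WT, at 967 and 2059 unconfined and 245, 263 and 901 confined. In WKO these sums were 2771 and 3270 unconfined and 3840, 1054 and 11775 confined. The part of stromal cells in the result was not tested.

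The KRAB members that fell were Zfp90, Zfp950, Zfp945 and Zfp760. Zfp950 had 282 and 268 counts in unconfined WT, 161, 156 and 94.0 in confined WT, 273 and 227 in unconfined WKO, and 109, 164 and 156 in confined WKO. The confined libraries of both genotypes were below all unconfined ones. Its average was -0.93 ± 0.19 SE (limma adjusted p = 0.0133). Zfp945 (-0.90 ± 0.22 SE, adjusted p = 0.0355) and Zfp760 (-0.96 ± 0.25 SE, adjusted p = 0.0412), both on chromosome 17, were lowest in confined WKO replicate 1 among the WKO libraries, at 58.8 and 28.2 counts. The call of Zfp950 was lost without replicate 1 of unconfined WT or WKO (up to 0.0776), that of Zfp945 without any 1 library other than the confined WKO ones (up to 0.161), and that of Zfp760 without any 1 library other than confined WKO replicates 1 and 5 (up to 0.152).

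Among the members without a KRAB pattern, Zfp217, a corepressor that works with CoREST complexes and is amplified in breast tumours, had 887 and 618 counts in unconfined WT and 522, 492 and 400 in confined WT. In WKO it had 1012 and 670 unconfined and 421, 593 and 537 confined, and replicate 1 was the higher library of each unconfined pair. Its average was -0.67 ± 0.16 SE (limma adjusted p = 0.0287), and the call was lost without replicate 1 of unconfined WT or WKO or any 1 confined WT library (up to 0.143). Zfp638, an RNA-binding nuclear matrix protein that silences unintegrated retroviral DNA, had 1206 and 1043 counts in unconfined WT and 829, 847 and 736 in confined WT, and 1126 and 1107 in unconfined WKO and 801, 943 and 994 in confined WKO. The step was small and even, with an average of -0.39 ± 0.09 SE (limma adjusted p = 0.0336), and the call was lost without any 1 library other than confined WKO replicates 1 and 5 (up to 0.131).

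The last 4 members that fell were Zfp865 (-0.58), Zfp276 (-0.55), Zfp219 (-0.41) and Zfp329 (-0.81), of which Zfp219 and Zfp329 are named with their values seen. Zfp865 was called in WKO (-0.74, limma adjusted p = 0.0344), with 399 and 395 counts unconfined and 250, 223 and 238 confined. That WKO call was lost in 7 of the 10 fits without 1 library, which were those without any unconfined library, confined WT replicate 2 or 3, or confined WKO replicate 2 (up to 0.283). Zfp865 overlaps Zfp784 and other genes, Zfp276 overlaps Fanca and Vps9d1, and Zfp219 overlaps Arhgef40 and Tmem253, so reads could be split between them. In the average, the call of Zfp865 was lost without unconfined WKO replicate 1 (0.0557), that of Zfp276 without unconfined WT replicate 1 or either unconfined WKO library (up to 0.078), that of Zfp219 without any 1 library other than confined WKO replicates 1 and 5 (up to 0.156), and that of Zfp329 without any 1 library other than the confined WKO ones (up to 0.171).

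**Figure D4:**
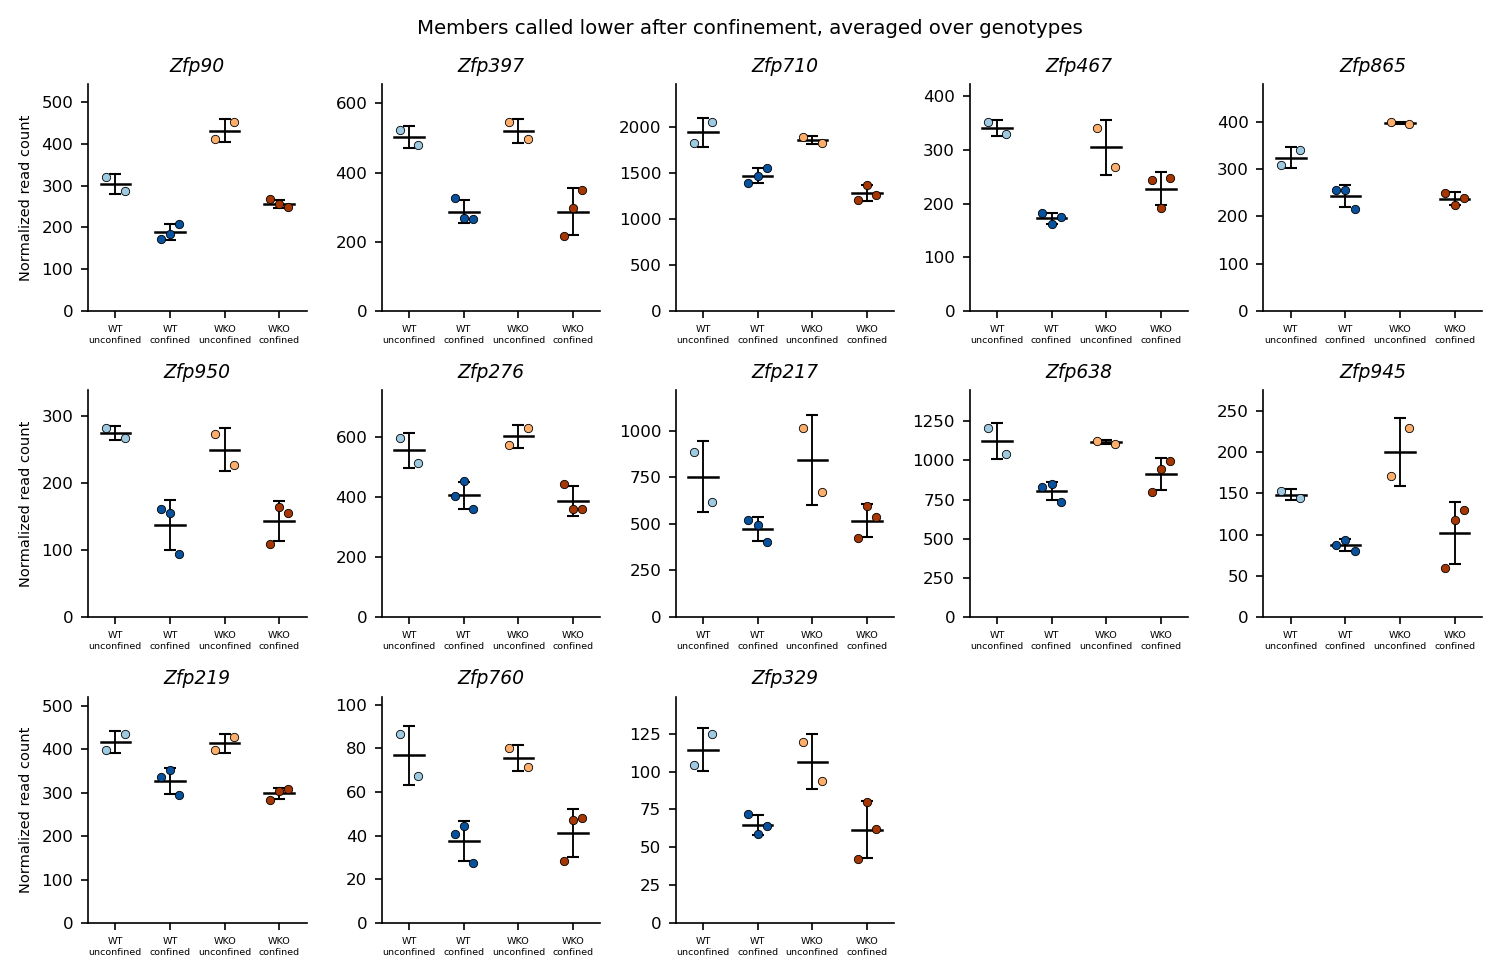
Normalized read counts (y axis, from 0) of the 13 Zfp genes called lower in the average of WT and WKO, drawn as in the plot of the genes that rose. For each of the 13, the highest confined library lies below the lowest unconfined one.

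The genotypes mostly shared direction. Of the 211 members, 125 were lower in both genotypes and 46 higher in both, 81.0% of the members against 69.9% of all tested genes, and the fold changes of WT and WKO had Pearson's r = 0.76 and Spearman's rho = 0.66 across members (0.62 and 0.51 across all tested genes, which are not independent replicates). The interaction, the WKO effect minus the WT effect, had no member called, as it had no gene called at all (0.0% of tested genes). At an unadjusted p under 0.05, limma gave 1 member higher and 1 lower, beside 1.34% and 0.731% of all tested genes, and edgeR and DESeq2 called 0. The smallest interaction p-values were those of Zfp992 (-0.69 ± 0.29 SE) and Zfp143 (0.61 ± 0.26 SE), both with a limma adjusted p of 0.999. Zfp143, an activator that binds promoters of small nuclear RNA and many housekeeping genes, had 227 and 249 counts in unconfined WT and 148, 165 and 190 in confined WT. In WKO it had 174 and 164 unconfined and 179, 164 and 202 confined, so that only the unconfined WT libraries stood apart.

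**Figure D5:**
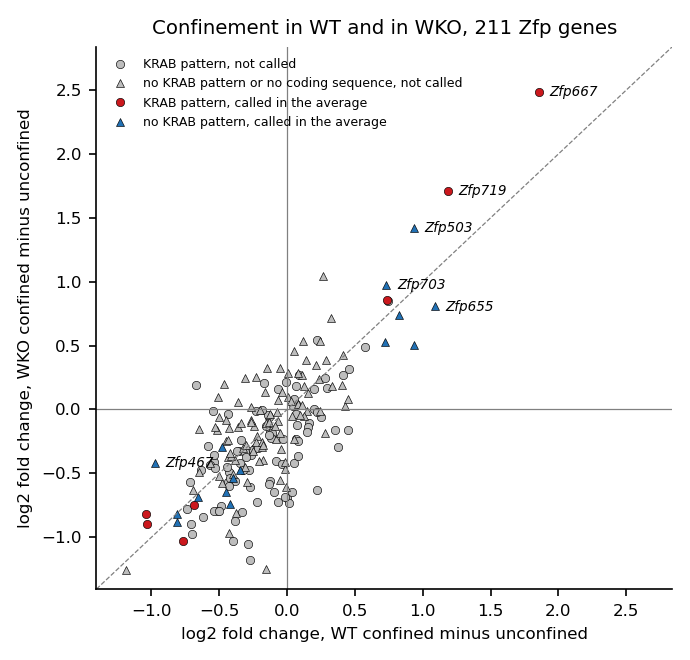
Log2 fold change after confinement in WT (x axis) against WKO (y axis) for the 211 Zfp genes, where the dashed line marks equal values. Colour marks the 22 members called in the average and shape marks the KRAB pattern, and 125 members lie below 0 on both axes.

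Genotype on its own had no member called. In unconfined cells limma called 0 members, beside 0.0482% of all tested genes higher and 0.0963% lower in WKO. At an unadjusted p under 0.05 it gave 4 members higher and 1 lower, beside 4.64% and 4.96% of all tested genes. The smallest p-values were those of Zfp90 (0.51, adjusted p = 0.344) and Zfp143 (-0.49, adjusted p = 0.467). In confined cells limma again called 0 members, beside 1.38% of all tested genes higher and 1.2% lower. At an unadjusted p under 0.05 it gave 10 members higher and 7 lower, beside 9.12% and 7.64%. Zfp703 (0.59 ± 0.14 SE, adjusted p = 0.0545) came nearest, followed by Zfp395 (0.36, adjusted p = 0.0796), with 732, 724 and 733 counts in confined WT and 983, 945 and 888 in confined WKO. In both genotype comparisons edgeR called 0, and DESeq2 called 0 in unconfined and 2 higher in confined cells. Without confined WKO replicate 1, 3 members were called higher in confined cells (2.51% of all tested genes), without replicate 2, 1 was (1.41%), and without replicate 5, 1 was lower (1.63%). Zfp703 passed without confined WKO replicate 1 (0.63, limma adjusted p = 0.0456) or replicate 2 (0.73, adjusted p = 0.0258).

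By role, the 11 members of RNA, ribosome and protein quality control had 5 lower in the average, a median of 0.05 and only Zfp638 called. Zfp598, the ubiquitin ligase that marks collided ribosomes, had 650 and 638 counts in unconfined WT and 356, 466 and 414 in confined WT, and 465 and 541 in unconfined WKO and 552, 355 and 467 in confined WKO. Its WT groups did not overlap while its WKO groups did, and neither was called (limma adjusted p = 0.16 in WT and 0.762 in WKO). Zfp91, a ubiquitin ligase of the noncanonical NF-kB pathway, had a value of 0.34 (limma adjusted p = 0.146) in the average, and Zfp330, a nucleolar protein, one of -0.38 (adjusted p = 0.143).

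The list of other transcription factors held 20 members of 23 listed, with 11 lower in the average and a median of -0.07. Of these 20, Zfp703, Zfp516 and Zfp652 were called higher and Zfp217 and Zfp219 lower in the average. Of all tested genes, 4.13% were called higher and 2.07% lower. Zfp423 and Zfp521 had means under 10 and Zfp462 a mean of 39.1. The list of KRAB repressors of retroelements and imprints held 7 members of 12 listed, with 0 called by limma (4 lower and 0 higher at an unadjusted p under 0.05), 6 lower in the average and a median of -0.35. Of the whole KRAB class, 72.5% were lower in the average with a median of -0.27, beside 68.2% of all members and 52.7% of all tested genes. At an unadjusted p under 0.05 in limma, 27.5% of the class were lower, beside 26.5% of all members and 9.70% of all tested genes. That background is not matched for level. At a mean of 50 to 150, 26 of 96 members and 259 of 1784 tested genes were lower by this threshold. At 150 to 500, 25 of 87 members and 429 of 3231 tested genes were. By adjusted p, limma called 3.92% of the class lower, against 8.33% of the members without the pattern. Zfp445, which keeps imprints together with Zfp57, had 1327 and 948 counts in unconfined WT and 840, 944 and 799 in confined WT, against 1312 and 1307 in unconfined WKO and 987, 1137 and 879 in confined WKO. The groups did not overlap in either genotype, though in WT the highest confined and lowest unconfined libraries were 944 and 948. Its average was -0.39 ± 0.11 SE (limma adjusted p = 0.0671), and it did not match the KRAB pattern used here although it is a KRAB protein. Zfp932 (-0.48, adjusted p = 0.112), Zfp992 (-0.35, adjusted p = 0.196) and Zfp961 (-0.46, adjusted p = 0.206) were the next by p. Zfp57 itself had a mean of 1.39.

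The proteins through which KRAB factors act were spread around 0. Of 27 silencing partners tested, 15 were lower in the average with a median of -0.04, and limma called 1 lower and 1 higher, beside the 2.07% and 4.13% of all tested genes. The gene that fell was Morc3, an ATPase of retroelement silencing (-0.35 ± 0.09 SE, limma adjusted p = 0.0348), and the one that rose was Resf1 (0.69 ± 0.18 SE, adjusted p = 0.0415). Setdb1 had a value of -0.31 ± 0.09 SE (limma adjusted p = 0.0586).

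Other families of the same fold are given beside all tested genes, of which 52.7% were lower in the average, 2.07% called lower and 4.13% called higher. Differences between families were not tested. Of 17 Zscan and Zkscan genes, 13 were lower in the average and 2 called lower by limma, Zkscan3 (-0.85) and Zscan26 (-0.59). Of 33 Zbtb genes, 13 were lower and 6 called higher, among them Zbtb2 (1.43) and Zbtb10 (1.72). Of 12 Klf genes, 1 was lower and 8 were called higher, led by Klf4 (3.65). Zfp36, which is outside the rule and has fingers of the CCCH kind that bind AU-rich mRNAs such as that of Tnf, rose by 1.95 ± 0.27 SE (limma adjusted p = 0.00145).

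Promoters are shown for 4 called members that hold 1 of the motifs searched, a pair that rose and a pair that fell, taken from 250 bases before to 50 after the RefSeq start on GRCm38.p6. Motifs were searched on either strand, so marked letters can be the reverse complement of a site. Letters are 5′ to 3′ on the gene's strand, and capitals mark the motif: an NRF1 site (GCGCA, any base, then GCGC) in Zfp667 (chr7:6286330-6286629, plus strand), an ETS site (CCGGAAGT) in Zfp655 (chr5:145231492-145231791, plus strand), and NF-kB sites in Zfp710 (chr7:80024564-80024863, plus strand) and Zfp467 (chr6:48445041-48445340, minus strand).
Zfp667: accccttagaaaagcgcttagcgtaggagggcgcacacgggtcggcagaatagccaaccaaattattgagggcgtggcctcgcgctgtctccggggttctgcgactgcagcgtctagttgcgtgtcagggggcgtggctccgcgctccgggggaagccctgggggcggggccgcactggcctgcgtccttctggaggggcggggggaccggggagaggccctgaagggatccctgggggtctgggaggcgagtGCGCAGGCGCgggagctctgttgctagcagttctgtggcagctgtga
Zfp655: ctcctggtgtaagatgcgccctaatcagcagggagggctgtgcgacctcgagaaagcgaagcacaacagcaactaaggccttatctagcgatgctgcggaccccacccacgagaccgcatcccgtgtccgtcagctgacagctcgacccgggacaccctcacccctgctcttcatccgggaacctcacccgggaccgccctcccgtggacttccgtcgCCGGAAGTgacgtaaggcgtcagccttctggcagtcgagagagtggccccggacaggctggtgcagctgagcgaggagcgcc
Zfp710: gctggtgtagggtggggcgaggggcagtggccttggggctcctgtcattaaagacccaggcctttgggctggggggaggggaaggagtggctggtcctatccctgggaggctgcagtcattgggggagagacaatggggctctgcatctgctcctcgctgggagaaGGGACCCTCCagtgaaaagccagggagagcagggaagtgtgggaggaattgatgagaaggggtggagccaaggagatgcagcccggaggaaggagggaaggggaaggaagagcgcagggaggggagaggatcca
Zfp467: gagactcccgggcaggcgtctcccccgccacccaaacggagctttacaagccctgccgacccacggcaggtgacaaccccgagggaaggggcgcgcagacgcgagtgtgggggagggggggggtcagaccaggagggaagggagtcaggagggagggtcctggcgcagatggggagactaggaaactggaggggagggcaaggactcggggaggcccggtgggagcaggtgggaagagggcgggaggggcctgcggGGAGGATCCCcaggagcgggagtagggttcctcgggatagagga

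A promoter was matched for 172 of the 211 members, with 210 start sites. On either strand, the members' genes held the NRF1 site in 11.6%, the ETS site in 12.2% and the NF-kB site in 11.6%, and all tested genes with a promoter held them in 11.8%, 9.64% and 12.2%. A cyclic AMP response element (TGACGTCA) was in 4.07% of members and 3.58% of tested genes, an AP-1 site (TGANTCA) in 4.65% and 6.34%, an E-box (CACGTG) in 8.72% and 12.0%, and a CArG box in 1.74% and 1.51%. Over all 27025 genes of the table the NRF1, ETS and NF-kB shares were 5.19%, 4.31% and 9.55%. These matches describe letters in a window and say nothing of binding. The NF-kB site was found in 2 of the 9 members called lower that had a promoter and in 0 of the 7 called higher, too few to set apart from the 12.2% of tested genes.

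Of the chromosomes, 3 held 15 or more members: chromosome 7 with 48, chromosome 17 with 30 and chromosome 8 with 17. In the average, 34 of 48 on chromosome 7 were lower with a median of -0.17, 24 of 30 on chromosome 17 with a median of -0.42, and 10 of 17 on chromosome 8 with a median of -0.18, beside 68.2% of all members and 52.7% of all tested genes. On chromosome 17 the counts were 23 in WT and 27 in WKO. Of the 142 members that overlap no other gene's exon and share no sequence, 96 (67.6%) were lower in the average, with a median of -0.23.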

How the data were processed

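The file used holds 1 normalized read count per gene and library, and no p-values. Per the submitters' processing notes, FastQC, Trim Galore and STAR were used with GRCm38 (mm10). Versions, counter and annotation are not given in the sources used here. The deposited values are a signal, read counts divided by a size factor, since every value was a whole multiple of 1 read per library (100% whole within 1e-06), and those factors equal DESeq2's.

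Groups came from the sample titles. Members and lists were chosen with earlier results of these data known. All 12455 genes with a mean of at least 10 were fitted together in limma 3.58.1 (R 4.3.3) on log2(value + 1), with 1 mean per group, a mean-variance trend, 6 residual degrees of freedom and Benjamini-Hochberg adjustment at 0.05 in each of 6 contrasts. The test was tried on simulated data. Named members were those called with the largest change, those with the smallest p in each direction, and up to 4 of each role list, 28 in all. Another 3 are marked as named with their values seen, and further members are named for their level, structure or place at the edge of the rule. The alternatives were edgeR 4.0.16 and DESeq2 1.42.0 on the recovered reads, TMM and upper-quartile scaling, pseudocounts of 0.5 and 5, other filters, no trend, library weights, a GC and length correction, a replicate block and leaving out each library. Finger and KRAB patterns were read from translated GENCODE M21 coding sequences, as no protein table was used. Shared sequence means at least 20% of a transcript aligned by blastn 2.17.0 at 95% identity over stretches of at least 100 bases. Promoters came from RefSeq (GRCm38.p6). Of the marker genes listed for other cells, 1 is not reported here and is left out of the sums.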

Additional observations from a re-analysis of the deposited data

Results flagged for a closer look

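Zfp511 was the only member whose confined libraries lay on opposite sides of the unconfined ones in the 2 genotypes. It had 155 and 155 counts in unconfined WT and 83.6, 141 and 119 in confined WT, all lower, and 142 and 129 in unconfined WKO and 166, 147 and 153 in confined WKO, all higher. The WKO effect minus the WT effect was 0.66 ± 0.33 SE and did not pass the test (limma adjusted p = 0.999). Its exons overlap Tubgcp2, so reads could be split between the genes.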

How the results depend on the processing

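Members called lower or higher are counted here by setting. In WT (1 lower, 3 higher), counts were 3 lower with upper-quartile scaling, 5 and 6 with DESeq2, 0 and 0 without the mean-variance trend, 6 and 6 with library weights, 4 and 5 with a GC and length correction, 3 and 6 with only the groups compared, and 1 higher with no filter. In WKO (4 lower, 2 higher), 8 were higher with DESeq2, and counts were 0 and 1 without the trend, 23 and 16 with weights, 7 and 5 with the correction, 0 and 0 with only the groups compared, and 1 higher with a member mean of at least 100. In the average (13 and 9), 24 were lower with upper-quartile scaling, 23 with DESeq2, 7 with no filter, and 39 lower and 19 higher with weights. All tested genes called lower and higher in those fits were 3.58% and 3.15% with upper-quartile scaling, 3.30% and 6.49% with DESeq2, 0.797% and 1.46% with no filter, and 7.06% and 10.8% with weights, against 2.07% and 4.13%. In WKO they were 5.20% and 8.73% with weights, 0.779% and 3.12% with DESeq2, and 0.406% and 2.17% with the correction, against 0.233% and 1.49%. In WT they were 0.955% and 1.72% with DESeq2, 0.947% and 2.42% with weights, and 0.503% and 1.41% with the correction, against 0.265% and 0.891%. Upper-quartile scaling gave 0.474% and 0.827% in WT. With only the groups compared they were 0.819% and 2.83% in WT and 0.00803% and 0.257% in WKO. Without the trend they were 0.0401% and 0.120% in WT and 0.0642% and 0.297% in WKO. In confined cells, WKO minus WT had 0 and 0. Higher counts were 1 with upper-quartile scaling, 2 with DESeq2, 14 with weights (5 lower, median 0.12) and 1 with the correction. With a member mean of at least 30, 1 was lower. Members called lower and higher with weights were 2.37% and 6.64%, beside 7.82% and 7.82% of all tested genes. All tested genes called higher were 1.45% with upper-quartile scaling, 3.80% with DESeq2 and 1.81% with the correction.

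Without 1 library, counts ran from 0 to 5 lower and 0 to 6 higher in WT, 0 to 8 and 0 to 13 in WKO, 3 to 24 and 5 to 17 in the average, and 0 to 1 and 0 to 3 for confined genotype, whose median ran from -0.053 to 0.124. The 13 higher in WKO (6.16%) and the 3 higher for confined genotype (1.42%) came without confined WKO replicate 1. In that fit 6.57% and 2.51% of all tested genes were called higher. The interaction median ran from -0.098 to 0.076. The members' median stayed under 0 in each alternative run, from -0.23 to -0.09 in WT, -0.31 to -0.12 in WKO and -0.30 to -0.14 in the average. Upper-quartile scaling moved the median of all tested genes to -0.08, -0.12 and -0.10 in these 3 comparisons.

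The replicate block gave 7 lower and 5 higher in the average (7 lower with the GC and length correction added) and 2 lower in WKO (2 with it). All tested genes called lower and higher in the average were 0.787% and 2.29%, and 0.706% and 2.99% with the correction. In WKO, 0.201% of all tested genes were called lower, and 0.187% with the correction. Deviations from the group means had correlations of -0.11 to 0.08 between same-numbered libraries. The labels do not say what the numbers mean. With 2 or 3 libraries per group, these correlations cannot settle whether the numbers pair samples.

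In the average, Zfp667, Zfp655, Zfp703, Zfp397, Zfp710 and Zfp516 kept their call under all 23 alternatives run. No called value reversed. The 2 or 3 libraries per group and a median of 165 reads per member and library limit the precision of these values.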
